A study of Mus musculus with 12 samples.

Results

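The genes described here are 9 genes of hepatic fatty acid oxidation, its regulation and its neighbouring pathways: Cpt1a, Cpt2, Acadm, Acadl, Ppara, Pdk4, Angptl4, Fgf21 and Plin2. They were taken by symbol from the count matrices, and all 9 were among the 22519 genes listed at both stages of the study. Whole livers of mice carrying the Nodder (Ndr) allele of Jag1, a missense allele of a Notch ligand, were dissociated and sequenced cell by cell in droplets, with unique molecular identifiers (UMIs) marking each captured transcript. The groups were Jag1+/+, Jag1Ndr/+ and Jag1Ndr/Ndr at E16.5 (days of gestation) and at postnatal day 3 (P3), all bred from heterozygous parents, and the series' design text gives 2 individuals per genotype and stage. Per the labels' protocols, homozygous pups were picked by jaundice, dead cells were removed magnetically before loading, and TrypLE was part of the digestion only at E16.5.

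Long-chain fatty acids enter mitochondria as carnitine esters, and CPT1A makes these esters in liver at the rate-limiting step, while CPT2 turns them back into acyl-CoA inside the organelle. The acyl-CoA dehydrogenases ACADL and ACADM then begin each round of beta-oxidation, and the acetyl-CoA produced feeds ketone body synthesis. PPARalpha, encoded by Ppara, is a fatty acid-activated nuclear receptor that drives many of these genes, and the pathway is known to be taken into use around birth, when milk fat replaces placental glucose.

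The 12 deposited matrices held 9 separate libraries, since 7 of 66 pairs of matrices shared at least 53.4% of their barcodes, while the other pairs shared 0.547% to 1.72%. One E16.5 matrix had been deposited under 2 labels, as replicate 2 of Jag1+/+ and of Jag1Ndr/+, and it entered once, as the shared library. At P3, libraries A and B (labelled Jag1+/+ replicates 1 and 2) also appeared under homozygous labels, and all barcodes of the matrix labelled Jag1Ndr/+ replicate 2 were in B, so the genotype of A and B was unclear. Library C was Jag1Ndr/Ndr replicate 1 without the barcodes of A, and library D was Jag1Ndr/+ replicate 1. Total UMIs per library ran from 75745209 to 258642858 and the median per passing barcode from 2961 to 9256. Stage was therefore compared over 5 and 4 libraries, and genotype was tested only at E16.5. E16.5 values are listed below in the order Jag1+/+ replicate 1, shared library, Jag1Ndr/+ replicate 1, Jag1Ndr/Ndr replicates 1 and 2, and P3 values in the order A to D. Stage could not be told apart from the digestion, from the software version in the file headers, or from the gene list, which had 31053 genes at E16.5 and 22597 at P3.

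Hepatocyte-like cells were the cluster at each stage whose 10 leading genes included 9 (E16.5) and 8 (P3) hepatocyte markers such as Alb, Afp and Ahsg. They numbered 687 at E16.5 (90 to 222 per library) and 591 at P3 (50 to 289 per library). Their median depth was 18344 to 27800 UMIs at E16.5 and 2029 to 8588 UMIs at P3. Globin genes took 4.79% to 7.71% of their UMIs at E16.5 and 0.719% to 1.84% at P3. In these cells the 12 listed erythroid markers summed to 49243.9 to 78380.1 CPM (UMIs of a gene scaled to a common library total) at E16.5 and 7106.5 to 18636.3 CPM at P3, with none of them at 0. The 13 hepatocyte markers summed to 146518.0 to 201326.8 CPM and 125532.5 to 186542.7 CPM. The 12 mesenchymal markers summed to 164.4 to 544.5 CPM at E16.5 and 22.07 to 127.7 CPM at P3, where 11 of them were detected, also without overlap. The part of erythroid and mesenchymal RNA in the stage differences was not tested. A cluster at each stage in which hepatocyte genes stood beside over 10% globin UMIs was kept apart as mixed, a limit set after its values were seen. It held 1.83% to 4.21% of kept cells per library at E16.5 and 0.178% to 0.951% at P3, and in it Cpt1a stood at 0.730 to 5.33 CPM and 11.03 to 40.7 CPM. Every member called between stages in hepatocyte-like cells was also called with these cells included. The called members stood lower in the mixed cluster than in hepatocyte-like cells at both stages. With 3034 mixed cells at E16.5 and 353 at P3, their inclusion weighed more on E16.5, so the kept calls are weak support.

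Promoters from RefSeq (GRCm38.p6, 250 bases before to 50 bases after the start site) were matched for 8 of the 9 genes, and Angptl4 had no entry. They were searched on both strands for AGGTCA, the hexamer bound by PPARalpha and related nuclear receptors, for its direct repeat AGGTCANAGGTCA, and for the cyclic AMP response element TGACGTCA. The hexamer was found in 3 of the 8, namely Cpt1a, Acadm and Plin2, against 16.3% of 32851 promoters. The direct repeat was in 0.0396% and the cyclic AMP element in 1.79% of all promoters, and neither was in the 8 windows. The 3 sequences are shown because they set Cpt1a and Plin2, the members with the highest and the next highest stage difference among the 8 tested in hepatocyte-like cells, beside Acadm, which was not called. Capitals mark the hexamer, which reads TGACCT on the strand shown and begins 94, 249 and 218 bases before the start site in Cpt1a, Acadm and Plin2. Cpt1a is at chr19:3323051-3323350 (plus strand), Acadm at chr3:153944594-153944893 (minus strand) and Plin2 at chr4:86670010-86670309 (minus strand). A match of letters is a description and not a binding site.
Cpt1a: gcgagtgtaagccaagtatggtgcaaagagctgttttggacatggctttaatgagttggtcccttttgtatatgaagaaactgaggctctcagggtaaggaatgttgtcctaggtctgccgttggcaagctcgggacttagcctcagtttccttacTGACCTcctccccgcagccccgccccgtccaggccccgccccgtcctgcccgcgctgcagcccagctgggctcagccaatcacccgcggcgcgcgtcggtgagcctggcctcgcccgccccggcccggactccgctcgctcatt
Acadm: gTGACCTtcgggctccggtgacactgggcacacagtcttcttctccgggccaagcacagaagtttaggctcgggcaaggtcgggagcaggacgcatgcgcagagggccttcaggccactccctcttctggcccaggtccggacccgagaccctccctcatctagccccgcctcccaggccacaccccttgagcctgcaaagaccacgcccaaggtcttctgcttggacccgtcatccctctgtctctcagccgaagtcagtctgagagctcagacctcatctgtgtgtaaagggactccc
Plin2: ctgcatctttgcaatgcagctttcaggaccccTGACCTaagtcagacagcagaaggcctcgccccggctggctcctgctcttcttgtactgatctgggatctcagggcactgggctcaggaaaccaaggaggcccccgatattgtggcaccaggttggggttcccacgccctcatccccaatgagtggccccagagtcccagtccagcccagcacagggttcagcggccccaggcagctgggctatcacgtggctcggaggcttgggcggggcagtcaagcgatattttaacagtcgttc

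In hepatocyte-like cells, transcripts of the carnitine shuttle, of long-chain acyl-CoA dehydrogenase, of the receptor Ppara and of the lipid droplet coat were higher at P3 than at E16.5. Cpt1a rose most among the 8 tested members, 16.9-fold, and Acadm, the medium-chain enzyme, was not called in either direction. In the edgeR quasi-likelihood test, 6 of the 8 members that passed the filter on low counts were called higher and none lower, against 21.4% of all 9849 genes tested called higher and 21% called lower. The median log2 difference was 1.34 over the 8 tested members and -0.05 over all genes. A gene was called at an adjusted p below 0.05, and log2 differences are P3 over E16.5 after TMM scaling throughout.

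**Figure D1:**
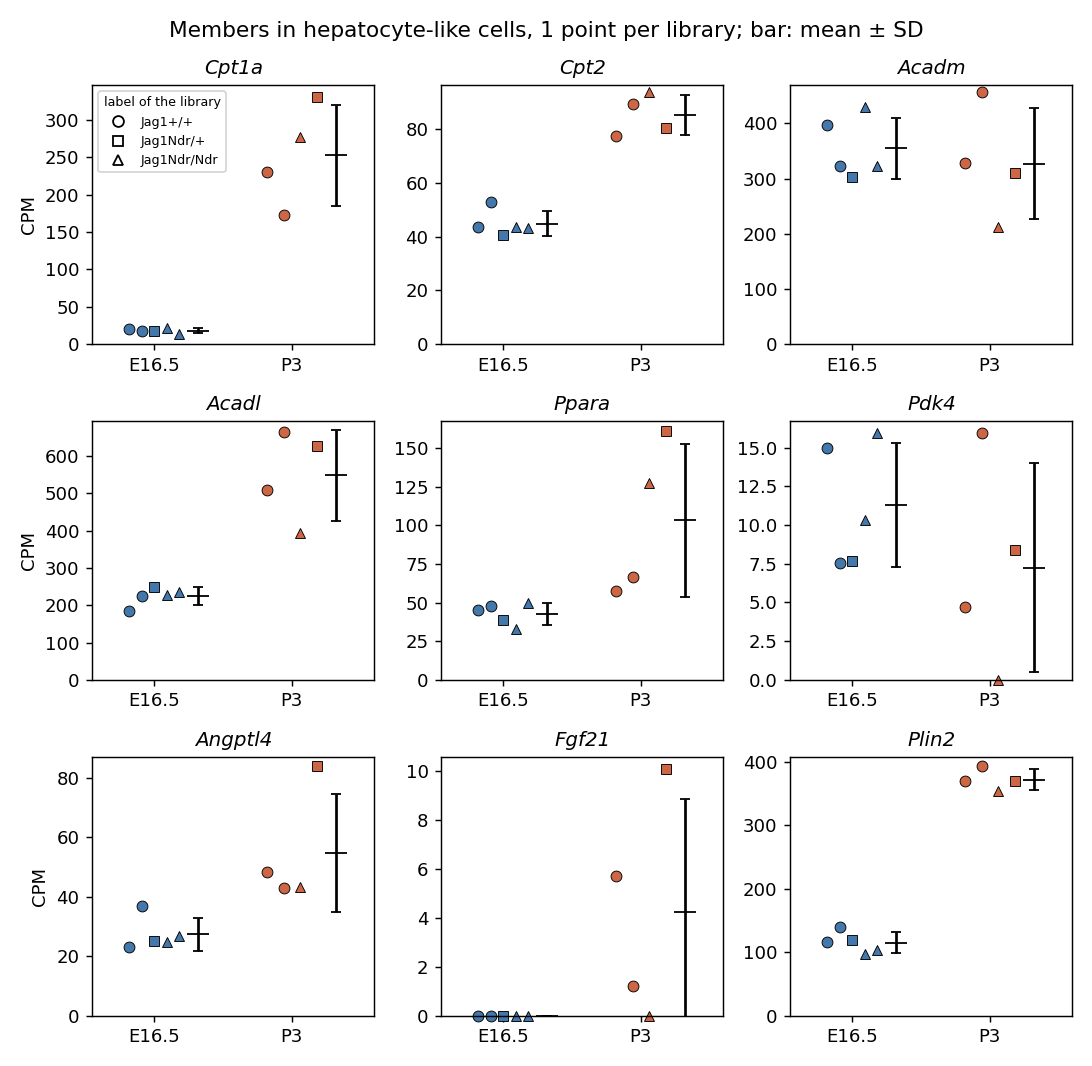
Level of each member in hepatocyte-like cells (y axis, CPM, linear scale from 0) at E16.5 and P3 (x axis), with 1 point per library, symbols for the genotype label and a bar for mean ± SD. The shared E16.5 library is drawn with its Jag1+/+ label, and P3 libraries A and B are drawn as circles although their genotype is unclear. For Cpt1a, Cpt2, Acadl, Ppara, Angptl4 and Plin2 every P3 library lies above every E16.5 library, whereas the stages overlap for Acadm and Pdk4. The share of all genes without overlap in CPM was not measured.

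Cpt1a (chromosome 19, 3322334 to 3385733, plus strand, GENCODE M21 on GRCm38) stood at 20, 17.2, 17.9, 21.3 and 13.2 CPM in the 5 E16.5 libraries. At P3 it stood at 229.9, 172.9, 276.9 and 330.9 CPM in libraries A to D. The lowest P3 library was far above the highest E16.5 library. On the log2 scale the difference was 4.08 (SE 0.20, edgeR adjusted p = 1.7e-08). These levels rested on 289 UMIs at E16.5 and 895 at P3.

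Cpt2 (chromosome 4, 107903981 to 107923610, minus strand), the inner-membrane partner of Cpt1a, stood at 43.6, 53.0, 40.7, 43.8 and 43.2 CPM at E16.5. It stood at 77.5, 89.5, 93.9 and 80.6 CPM at P3. The stages did not overlap, and the spread within each was small beside the gap between them. The log2 difference was 1.17 (SE 0.15, edgeR adjusted p = 4.1e-05), so that the 2 carnitine palmitoyltransferases rose by different amounts, 16.9-fold and 2.25-fold.

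Acadl (chromosome 1, 66830839 to 66863277, minus strand), the long-chain acyl-CoA dehydrogenase, stood at 183.2, 224.1, 248.9, 227.6 and 236.6 CPM at E16.5. Its P3 values were 509.3, 663.4, 394.9 and 626.5 CPM, with library C lowest and still above every E16.5 library. This amounted to a log2 difference of 1.55 (SE 0.18, edgeR adjusted p = 1.9e-05).

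Acadm (chromosome 3, 153922357 to 153944632, minus strand), the medium-chain enzyme whose loss causes the best known human disorder of beta-oxidation, stood at 397.3, 323, 302.5, 429.1 and 321.9 CPM at E16.5. Its P3 values were 328.2, 457.4, 211.9 and 310.7 CPM. The P3 libraries spanned the whole E16.5 range, with library C below and library B above it. Acadm differed by 0.15 on the log2 scale (SE 0.20, edgeR adjusted p = 0.553). With library totals in place of TMM it was -0.11, so its direction is not given.

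Ppara (chromosome 15, 85734983 to 85802819, plus strand) stood at 45, 47.6, 38.7, 32.7 and 49.96 CPM at E16.5. At P3 it stood at 57.7, 66.2, 127.6 and 161.2 CPM. All P3 libraries were above the E16.5 libraries, and A and B, the libraries of unclear genotype, were near the E16.5 values while C and D were far above them. The log2 difference was 1.46 (SE 0.28, edgeR adjusted p = 8.5e-04), and it was 2.02 with only C and D at P3.

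Pdk4 (chromosome 6, 5483351 to 5496309, minus strand) encodes a kinase that switches off pyruvate dehydrogenase and so spares glucose when fat is burned. It stood at 15, 7.53, 7.69, 10.3 and 15.9 CPM at E16.5 and at 4.68, 15.9, 0 and 8.398 CPM at P3. The stages overlapped, and the P3 values rested on 27 UMIs in all. Library C had 0 Pdk4 UMIs, for which 3 UMIs, or 7.22 CPM, is the limit that a count of 0 allows. The test gave a log2 difference of -0.34 (SE 0.49, edgeR adjusted p = 0.601). It was 0.03 without P3 Jag1+/+ replicate 1 and -0.99 without P3 Jag1+/+ replicate 2, so its direction is not given.

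Angptl4 (chromosome 17, 33773750 to 33781830, minus strand) encodes a secreted inhibitor of lipoprotein lipase. It stood at 23.2, 37.0, 25, 24.6 and 26.7 CPM at E16.5 and at 48.4, 42.9, 43.3 and 84.0 CPM at P3. The P3 libraries lay above all E16.5 libraries, closely so except for library D. The log2 difference was 1.22 (SE 0.22, edgeR adjusted p = 6.1e-04).

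Fgf21 (chromosome 7, 45613886 to 45615490, minus strand) encodes a hormone that the liver releases when fatty acids are used. No Fgf21 UMI was found in any of the 99729 cells kept at E16.5, which allows a share of up to 0.00301% of cells with a UMI. At P3, hepatocyte-like cells held 11, 1, 0 and 6 Fgf21 UMIs in libraries A to D, or 5.72, 1.23, 0 and 10.1 CPM. Set against 3 UMIs over all 5 E16.5 libraries, the limit that a count of 0 allows, the pooled P3 level of 4.80 CPM was 26.4-fold higher. That ratio is no lower bound, because the P3 level was taken as counted, with its own counting error. Of all 29 Fgf21 UMIs in kept P3 cells, 18 were in hepatocyte-like cells. Fgf21 did not pass the filter on low counts, and it was called higher (edgeR adjusted p = 1.9e-04) only when the filter was left out.

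Plin2 (chromosome 4, 86648386 to 86670060, minus strand) encodes perilipin 2, the protein that coats lipid droplets in most cells. It stood at 115.5, 139.4, 118.9, 97.1 and 103.7 CPM at E16.5 and at 370.4, 393.6, 353.9 and 369.5 CPM at P3. The P3 libraries were close to each other and far above the E16.5 libraries. The log2 difference was 1.95 (SE 0.15, edgeR adjusted p = 7.5e-07), a 3.87-fold rise.

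Under DESeq2, other cell filters, other scalings and each omission of 1 library, the direction and call of these 6 members held wherever they were tested. Angptl4 was not tested after thinning each cell to 2000 UMIs. Scaling mattered more for the background: the split of all calls was 50.6% higher with TMM, and 32.4% higher (1465 higher and 3057 lower) with library totals, where the median of all genes was -0.30. Alb itself was at 54677.6 to 74501.0 CPM at E16.5 and 17311.8 to 30995.5 CPM at P3. Removing the 13 hepatocyte markers, Alb among them, before scaling left the log2 difference of Cpt1a at 4.07.

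The share of hepatocyte-like cells with at least 1 UMI was compared after each cell was thinned to 2000 UMIs, since P3 cells were shallower. Thinning left out 229 of the 591 P3 cells and none at E16.5. Cells with a Cpt1a UMI made up 3.92% ± 2.23 (SD, n = 5) at E16.5 and 33.8% ± 9.08 (SD, n = 4) at P3. Plin2 went from 17.9% ± 4.68 to 52.6% ± 4.79 and Acadl from 31.7% ± 1.68 to 62.3% ± 12.5 of cells. For Cpt1a, Acadl, Ppara, Angptl4 and Plin2 the P3 libraries all exceeded the E16.5 libraries, at an exact two-sided permutation p = 0.0159, the smallest that 5 against 4 libraries can give. Of 9841 genes of the stage test with a single row, 7.03% had every P3 library above every E16.5 library in this share, against these 5 of the 9 members. The reverse order held for 10.4% of those genes and for no member. Cpt2 reached 16.6% against 7.04% (exact permutation p = 0.0317). With 1 library left out in turn, the difference was 26.5 to 33.3 percentage points for Cpt1a and 32.5 to 36.3 for Plin2. Thinned to 1000 UMIs, the mean share for Angptl4 differed by -0.0708 percentage points between the stages, so its direction is not read from shares, and the Ppara difference was 2.83 percentage points. At that depth the differences were also smaller for Cpt1a, at 15.4 percentage points in place of 29.9, and for Cpt2, at 4.71 in place of 9.52. They were 23.4 for Plin2 in place of 34.7 and 27 for Acadl in place of 30.6. The shares of these genes were lower at 1000 than at 2000 UMIs at both stages, for Cpt1a 1.95% and 17.4%. The 229 P3 cells left out at 2000 UMIs also entered. The smaller differences are thus not read as smaller fold changes. With the mixed clusters included, the Acadm share was 14.8 percentage points higher at P3. Before thinning, that set held 3034 mixed beside 687 hepatocyte-like cells at E16.5, and 353 beside 591 at P3. In mixed cells Acadm stood at 21.9 to 79.96 CPM at E16.5 and 36.2 to 99.5 CPM at P3. In hepatocyte-like cells it stood at 302.5 to 429.1 CPM and 211.9 to 457.4 CPM. The part of this cell make-up in the difference was not tested.

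Acadm was found in 49.9% ± 6.63 of thinned cells at E16.5 and 46.1% ± 14.9 at P3 (exact permutation p = 0.603). Pdk4 was found in 1.69% and 1.76% of cells (exact permutation p = 0.952), and Fgf21 in none and 0.145%. Erythroid-like cells were thinned to the same depth for comparison, although they are no pure background for Plin2 and Acadl. At E16.5 these stood there at 24.3% to 54.8% and 9.32% to 18.1% of the hepatocyte-like level, against 0.768% to 1.09% for Alb. Their median depth before thinning was 4919 to 9164 UMIs at E16.5 and 2619 to 5391 UMIs at P3. In them Cpt1a reached 0.22% of cells at E16.5 and 1.21% at P3, and Acadl 6.39% and 7.35%. Plin2 reached 9.92% at E16.5 and 4.62% at P3. For Cpt1a, Acadl and Plin2 the hepatocyte-like shares at P3 thus stood well above those of erythroid-like cells.

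**Figure D2:**
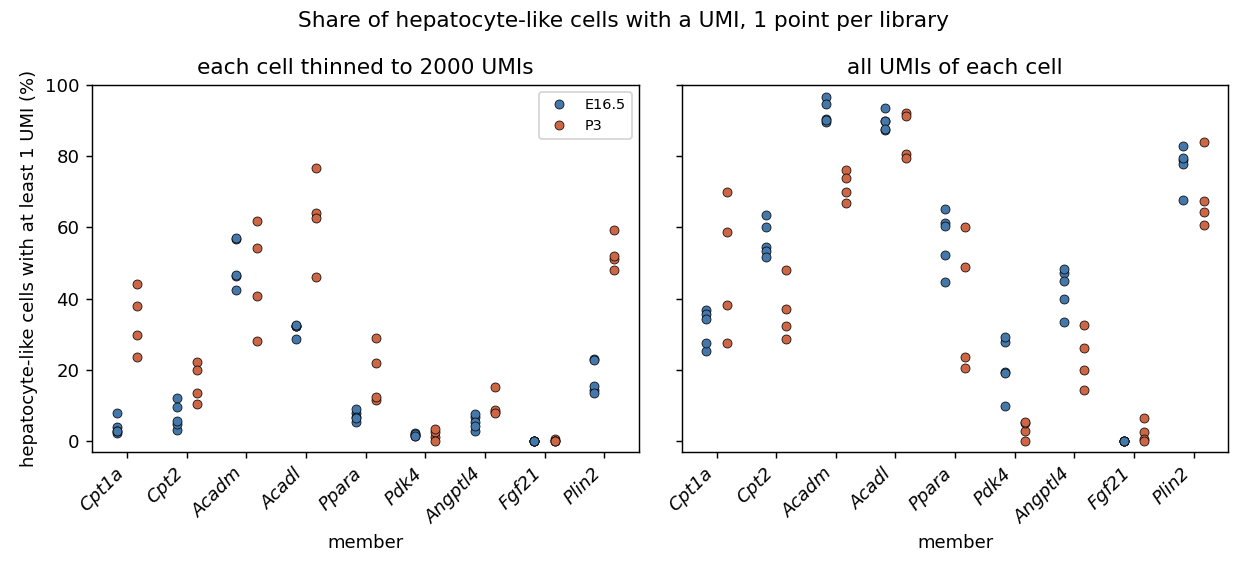
Share of hepatocyte-like cells with at least 1 UMI of each member (y axis, percent) by stage, 1 point per library, with cells thinned to 2000 UMIs on the left and unthinned on the right. On the left the P3 libraries of Cpt1a, Acadl, Ppara, Angptl4 and Plin2 lie above those of E16.5, and on the right, where E16.5 cells are deeper, Cpt2, Acadm, Pdk4 and Angptl4 lie lower at P3.

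Without thinning, the shares were 31.9% at E16.5 and 48.6% at P3 for Cpt1a, 56.6% and 36.5% for Cpt2, 42.8% and 23.3% for Angptl4, and 77.4% and 69.1% for Plin2. Since these orders go against the CPM for all but Cpt1a among the 4 genes, no stage order was read from the unthinned shares.

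The other genes of the pathway, given as 10 lists, showed which neighbouring steps moved with the members. Of 139 genes on the lists, 122 were tested in hepatocyte-like cells, 63 were called higher, 15 lower and 44 were not called. The medians below are log2 differences of P3 over E16.5, to be read beside -0.05 for all genes, and the counts beside 21.4% of all genes called higher and 21% lower. The pyruvate dehydrogenase and signalling lists lay below these shares in both directions. All list counts and medians are under TMM and are not given with library totals, where fewer of all genes were called higher.

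The carnitine shuttle and mitochondrial beta-oxidation list had 16 of 19 tested genes higher, none lower, and a median of 1.05. Eci2, an enoyl-CoA isomerase, rose by 1.94 (SE 0.21), Hadha, a subunit of the trifunctional protein, by 1.87 (SE 0.19) and Acadvl, the very-long-chain dehydrogenase, by 1.82 (SE 0.15), with edgeR adjusted p-values of 1.3e-05, 9.4e-06 and 1.4e-06. The 3 tested genes not called were Acad10, Echs1 and Etfa, named after their values were seen. Among those called higher, Slc25a20, Acadsb, Acad11, Hadhb and Hadh overlapped between the stages in CPM, and the others did not. The share of all genes without overlap in CPM was not measured, so no excess is read from this.

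The peroxisomal beta-oxidation list had 14 of 17 genes higher and none lower, with a median of 1.22. Of the 14, Acox2, Acot4 and Pex11a overlapped between the stages in CPM, and the others did not. Here too the share of all genes without overlap in CPM was not measured. Acaa1b and Acaa1a, peroxisomal thiolases, rose by 4.42 and 2.96 (edgeR adjusted p = 4.6e-09 and 2.8e-07), although reads of these near-identical genes could be split between them. Abcd2, a peroxisomal transporter of very-long-chain fatty acids, rose from a mean of 44.3 CPM to 213.1 CPM, a log2 difference of 2.52 (edgeR adjusted p = 1.2e-07).

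Of the 7 genes for ketone body synthesis, export and use, 4 were higher and 1 lower, with a median of 0.93. Bdh1, which interconverts the ketone bodies acetoacetate and beta-hydroxybutyrate, rose by 1.64 (SE 0.22, edgeR adjusted p = 7.4e-05). Slc16a1, a monocarboxylate transporter, fell by 1.65 (edgeR adjusted p = 1.4e-04).

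Of 10 tested genes listed as other PPARalpha targets, 7 were higher and none lower, with a median of 2.38. Cyp4a14 and Cyp4a10, which hydroxylate fatty acids at the far end of the chain, had 7 and 5 UMIs over all E16.5 hepatocyte-like cells and 2389 and 964 at P3. Their log2 differences were 10.42 (SE 0.36) and 9.51 (SE 0.44), with edgeR adjusted p-values of 5.0e-10 and 8.1e-09. Cyp4a31 followed with 6.02 (edgeR adjusted p = 5.3e-07). These genes are close copies, so the share of each is uncertain, but all 3 P3 sums exceeded those at E16.5 despite the lower depth.

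Among 12 tested transcriptional regulators, 5 were higher and 1 lower, with a median of 0.45. Rxra, the partner of PPARalpha, rose by 1.35, Nr1h4, the bile acid receptor, by 1.33 and Hnf4a by 0.76, with edgeR adjusted p-values of 5.7e-05, 4.5e-04 and 0.0017. Lpin1 fell by 0.75 (edgeR adjusted p = 0.032), although its CPM overlapped between the stages.

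Fatty acid uptake and activation was mixed, with 4 higher, 3 lower and 6 not called of 13, and a median of 0.35. Fabp2 and Fabp1, cytosolic fatty acid-binding proteins, rose by 4.52 and 3.21, and Slc27a5, a hepatic acyl-CoA synthetase, by 2.13 (edgeR adjusted p = 4.5e-08, 2.8e-07 and 1.7e-05). Acsl3 fell by 1.29, the scavenger receptor Cd36 by 1.05 and Lpl by 0.67 (edgeR adjusted p = 5.5e-04, 0.0202 and 0.0046). Of these, Cd36 overlapped between the stages in CPM.

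Fatty acid synthesis was the list with the lowest median, -1.17, with 6 of 11 genes lower and 3 higher. The desaturases Scd2 and Scd1 went from means of 969.2 and 217.8 CPM to 15.95 and 7.71 CPM, log2 differences of -5.44 and -4.57 (edgeR adjusted p = 1.7e-07 and 3.0e-07). Acly, which makes cytosolic acetyl-CoA, fell by 2.52 (edgeR adjusted p = 3.1e-06). Gpam, which starts glycerolipid assembly, rose by 2.48, Me1 by 0.98 and Elovl5 by 0.75 (edgeR adjusted p = 2.0e-05, 0.0124 and 0.0342). Me1 and Elovl5 overlapped between the stages in CPM.

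Lipid droplet genes other than Plin2 had 7 of 13 higher and 1 lower, with a median of 0.52. Plin5, the perilipin of oxidative tissues, rose by 3.02, the triglyceride lipase Pnpla2 by 2.38 and Fitm2 by 1.35, while Hilpda, an inhibitor of that lipase, fell by 1.08 (edgeR adjusted p = 7.3e-06, 4.4e-06, 9.4e-04 and 0.0030). Of these, Fitm2 overlapped between the stages in CPM. Around Pdk4, the pyruvate dehydrogenase list had 1 gene higher and 1 lower of 10 and a median of 0.01. Pdk2 rose by 1.54 and Pdk1 fell by 0.99 (edgeR adjusted p = 0.0098 and 0.0150). Pdk2 overlapped between the stages, at 3.18 to 8.09 CPM at E16.5 and 12.5, 18.4, 9.63 and 1.68 CPM in P3 libraries A to D. Its P3 values rested on 44 UMIs, and library D lay below every E16.5 library. Of 10 signalling partners of FGF21 and ANGPTL proteins, 2 were higher and 2 lower, with a median of -0.12. The glucagon receptor Gcgr rose by 2.26 (edgeR adjusted p = 7.8e-06). Fgfr2 fell by 1.65 (edgeR adjusted p = 0.0011), and Fgfr3 went from 131 UMIs to 1 UMI, a ratio of 0.0336 (95% exact counting interval 8.4e-04 to 0.191).

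**Figure D3:**
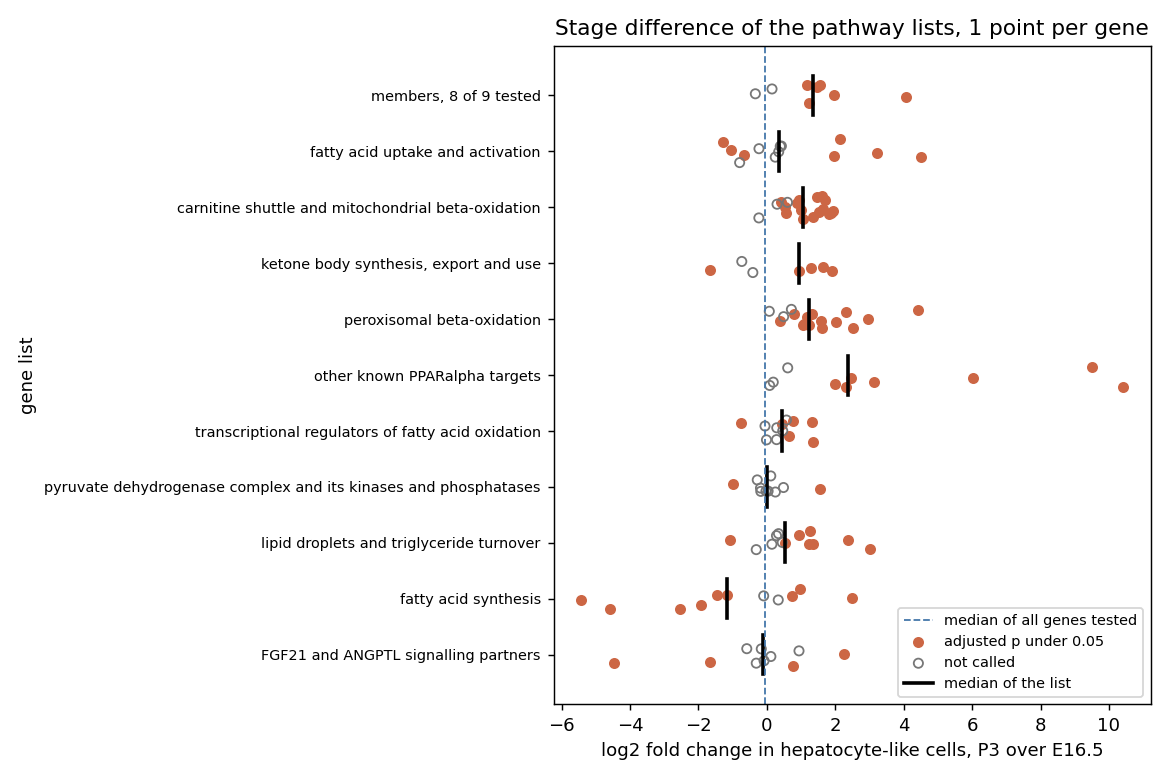
Log2 difference of P3 over E16.5 in hepatocyte-like cells (x axis) for each tested gene of the members and of the 10 lists (y axis), filled where the adjusted p was below 0.05, with the median of each list as a bar and the median of all genes as a dashed line. The oxidation, peroxisomal and PPARalpha target lists lie to the right of the dashed line, with medians of 1.05, 1.22 and 2.38, and the synthesis list lies to its left at -1.17.

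Outside hepatocytes the members did not move as a block. Cpt1a was higher at P3 in all 7 other classes tested, by 1.06 (monocyte-like) to 2.97 (erythroid-like). Angptl4 was higher in 6 of 7, most in macrophage-like cells, where it went from 2.03 to 4.52 CPM at E16.5 to 13.2 to 23.3 CPM at P3, a log2 difference of 2.17 (SE 0.22, edgeR adjusted p = 1.5e-05). Plin2 was higher in 5 classes and lower in B-like (-0.47) and erythroid-like cells (-1.16). Both classes may hold unlike cells at the 2 stages, which touches each of their stage values here. The E16.5 B-like clusters (4361 and 4123 cells) had the surrogate light chain genes Vpreb1, Vpreb3 and Igll1 among their 10 leading genes. At P3 B-like clusters of 1943 and 3601 cells had Ms4a1 and the light chain genes Igkc and Iglc1 there instead or as well. An E16.5 erythroid-like cluster of 4963 cells was led by the embryonic globin genes Hbb-y and Hba-x, which were among the 10 leading genes of no P3 cluster at the resolution used. Of 46 pairs of member and class tested, 23 were called higher and 7 lower.

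The share of all tested genes called higher was 26% in B-like, 22.8% in basophil and mast-like, 15.1% in endothelial-like, 23.2% in erythroid-like, 25.3% in macrophage-like, 24.8% in monocyte-like and 24.2% in neutrophil-like cells. The share called lower was 24.7%, 24.7%, 17.3%, 23.2%, 25.2%, 24.7% and 23.7% in the same order. Higher calls of Cpt1a in 7 of 7 classes and of Angptl4 in 6 of 7 are to be read against these shares.

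**Figure D4:**
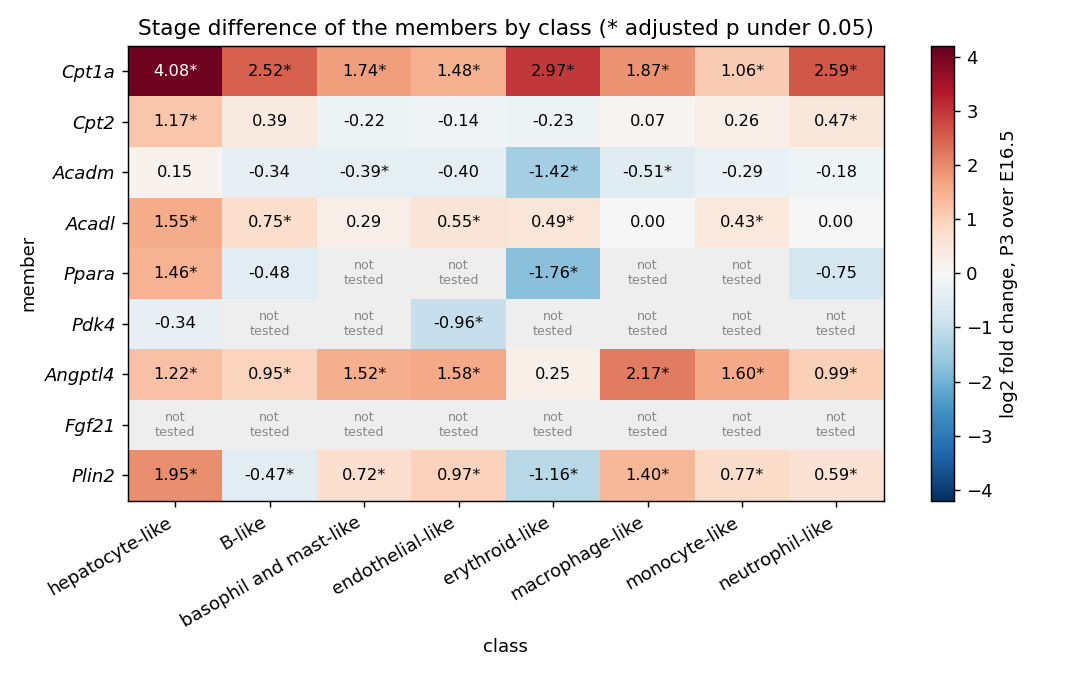
Log2 difference of P3 over E16.5 (colour and number) for each member (rows) in each of the 8 classes tested (columns), with an asterisk where the adjusted p was below 0.05 and grey where counts were too low to test. The Cpt1a row is positive in all 8 classes, from 1.06 to 4.08, whereas Acadm was called lower in 3 classes and was not called in the other 5, the hepatocyte-like class included.

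In macrophage-like cells Cpt1a stood at 11.7 to 16.6 CPM at E16.5 and 63.9 to 77.8 CPM at P3, and in erythroid-like cells at 0.504 to 1.44 CPM and 5.28 to 10.9 CPM, so that the stages did not overlap in either. None of the 9 members overlapped, on either strand, a gene that was in the deposited gene list of only 1 stage. That covers position alone: reads shared with similar sequences elsewhere and differences in transcript models were not examined. Free hepatocyte RNA was gauged by Alb, which in erythroid-like cells stood at 0.768% to 1.09% of its hepatocyte-like level at E16.5 and at 0.123% to 0.419% at P3. Cpt1a in erythroid-like cells stood at 2.82% to 8.35% and 2.30% to 4.01% of its hepatocyte-like level. In macrophage-like cells it stood at 20.7% to 44.97% at P3, against 0.458% to 1.19% for Alb.

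Acadl was higher in B-like (0.75), endothelial-like (0.55), erythroid-like (0.49) and monocyte-like cells (0.43), and Cpt2 in neutrophil-like cells (0.47). Acadm was lower in erythroid-like (-1.42), macrophage-like (-0.51) and basophil and mast-like cells (-0.39). In CPM the stages were apart for it only in erythroid-like cells. Macrophage-like Acadm stood at 29.3 to 48.6 CPM at E16.5 and 32.3 to 40.1 CPM at P3. Scaling by library totals was not run in these classes. The basophil and mast-like cluster at E16.5 also had the megakaryocyte markers Pf4 and Ppbp among its 10 leading genes, whereas megakaryocyte-like cells formed their own cluster at P3, so that class may hold unlike cells at the 2 stages. At the finer resolution of 2, E16.5 clusters of 294 and 1414 cells were named megakaryocyte-like and one of 235 cells basophil and mast-like. The P3 monocyte-like cells formed clusters of 2029 and 916 cells, the smaller one led by Ctsg, Mpo, Prtn3 and Elane, genes of granule proteins, which do not lead the E16.5 monocyte-like cluster, so that class may hold unlike cells as well. Ppara was lower in erythroid-like cells (-1.76). Ppara in erythroid-like cells was at 0.736 to 1.59 CPM and 0.254 to 0.458 CPM, or 2.03% to 3.34% and 0.284% to 0.70% of the hepatocyte-like level. The Alb share in these cells was lower at P3 as well, and the part of free RNA in the lower Ppara and Acadm values was not tested. Pdk4 was tested outside hepatocytes only in endothelial-like cells, which line the liver sinusoids, and was lower there, at a log2 difference of -0.96 (8.45 to 20.2 CPM and 4.38 to 17.97 CPM, edgeR adjusted p = 0.0447).

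Several of these calls changed when 1 library was left out, in some cases with any of several libraries. Endothelial-like Pdk4 lost its call without any of 6 libraries, at log2 -1.03 to -0.67, with edgeR adjusted p up to 0.182 (without P3 Jag1Ndr/Ndr replicate 1), and under DESeq2 (-0.93, adjusted p = 0.0657). Without P3 Jag1Ndr/+ replicate 1 it kept its call, as it did without E16.5 Jag1Ndr/+ replicate 1 or Jag1Ndr/Ndr replicate 2. Erythroid-like Acadl lost its call without any of 6 libraries (E16.5 Jag1+/+ replicate 1, the shared library, E16.5 Jag1Ndr/Ndr replicate 2, and P3 B, C or D), at log2 0.42 to 0.48. Basophil and mast-like Acadm lost it without any of 4 (E16.5 Jag1+/+ replicate 1, E16.5 Jag1Ndr/Ndr replicate 1, P3 A or C), at -0.35 to -0.33. B-like Plin2 lost it without P3 D, at -0.40 (edgeR adjusted p = 0.0633). In the other direction, B-like Cpt2 and Acadm gained a call without P3 B (0.52 and -0.47) and erythroid-like Cpt2 without P3 C (-0.38). Basophil and mast-like Acadl gained one without E16.5 Jag1Ndr/+ replicate 1 (0.37), and neutrophil-like Ppara without E16.5 Jag1Ndr/Ndr replicate 1 (-0.86).

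The stage difference itself was compared between classes in a model with the library as a block, a test added after the values were seen. Cpt1a rose more in hepatocyte-like than in macrophage-like cells, by 2.16 (SE 0.22, edgeR adjusted p = 8.4e-06), and more than in endothelial-like cells, by 2.50 (SE 0.26, edgeR adjusted p = 5.5e-06). The stage differences of Cpt2 and Acadl were also larger in hepatocyte-like cells than in both. Of these, Cpt2 was called in neither macrophage-like nor endothelial-like cells, and Acadl only in endothelial-like cells. Angptl4 rose more in macrophage-like than in hepatocyte-like cells, by 0.98 (edgeR adjusted p = 0.0276). For Plin2 the difference of 0.54 from macrophage-like cells was not called (edgeR adjusted p = 0.0543), while that of 0.94 from endothelial-like cells was (edgeR adjusted p = 0.0036). Of all genes, 13% had a larger and 7.99% a smaller change in hepatocyte-like than in macrophage-like cells, and 7.84% and 6.79% against endothelial-like cells.

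Levels by class are given as means over libraries with at least 20 cells of the class. Ppara was highest in hepatocyte-like cells at both stages, 42.8 CPM ± 7.01 (SD, n = 5) and 103.2 CPM ± 49.7 (SD, n = 4), and the next class, endothelial-like, reached 2.21 and 4.61 CPM with no overlap. Acadm and Acadl were also highest in hepatocyte-like cells at both stages, with no overlap with the next class. For Acadm the next classes were mesenchymal-like at E16.5 (60.4 CPM against 354.8 CPM) and megakaryocyte-like at P3 (86.4 CPM against 327.1 CPM). Cpt2 was highest in hepatocyte-like cells at E16.5 (44.9 CPM against 17 CPM in basophil and mast-like cells), while at P3 megakaryocyte-like cells (66.6 CPM ± 18.6) overlapped with them (85.4 CPM ± 7.63). At the clustering resolution used, no E16.5 cluster was named megakaryocyte-like, so the orders of Cpt2 and Acadm at the 2 stages rest on different sets of classes.

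Cpt1a changed its order with stage. At E16.5 monocyte-like (20.4 CPM), hepatocyte-like (17.9 CPM), endothelial-like (17.5 CPM) and macrophage-like cells (15.2 CPM) overlapped, and at P3 hepatocyte-like cells (252.7 CPM ± 67.3) stood above all others without overlap, macrophage-like cells being next at 69.4 CPM ± 5.93. Plin2 was shared among classes at both stages. Monocyte-like (115.9 CPM), hepatocyte-like (114.9 CPM) and macrophage-like cells (103.3 CPM) overlapped at E16.5, and hepatocyte-like (371.9 CPM ± 16.4) and macrophage-like cells (346.3 CPM ± 42.3) overlapped at P3. Pdk4 was highest in endothelial-like cells at both stages (14.5 and 9.11 CPM), which overlapped with hepatocyte-like cells (11.3 and 7.26 CPM).

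Angptl4 was highest in hepatocyte-like cells at E16.5 (27.3 CPM against 5.75 CPM in basophil and mast-like cells, with no overlap). At P3 mesenchymal-like cells, led by collagen genes, stood at 55.5 CPM ± 8.78 (SD, n = 3) and overlapped with hepatocyte-like cells at 54.7 CPM ± 19.7 (SD, n = 4). Mesenchymal-like cells were at 2.47 CPM at E16.5, and this difference was not tested because library D held fewer than 20 such cells.

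Hepatocyte-like cells were 0.351% to 1.49% of the kept cells, and most UMIs of several members were counted in other kept barcodes, the mixed clusters included. These shares describe the captured cells and not the whole liver. The parts of cell capture and of free RNA in them were not tested. Hepatocyte-like cells held a median of 43.6% of all Ppara UMIs at E16.5 and 54.5% at P3, but 8.84% and 7.52% for Cpt1a and 3.63% and 3.29% for Plin2. For Alb the medians were 61.8% and 75.1%.

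The genes whose profile over the 21 pairs of class and stage was most like that of a member were found among 10290 genes that reached 20 CPM in at least 1 pair. All points share libraries and hepatocyte-like cells weigh heavily, so the correlations are descriptions. For Ppara they were Dpys (Pearson r = 0.992) and Rdh7 (0.987), for Acadm Mut (0.969) and Slc37a4 (0.951), and for Acadl Pcyt2 (0.939) and Grhpr (0.938). For Cpt1a they were Tor1b (0.927) and Cox4i1 (0.915), for Cpt2 Coq9 (0.889) and Pex11g (0.882), and for Plin2 Tmem141 (0.864) and Pla2g7 (0.852). For Pdk4 they were Efna1 (0.973) and Yap1 (0.971), for Angptl4 Mocs2 (0.860) and Por (0.845), and for Fgf21, which never exceeded a mean of 4.26 CPM, Akr1c18 (0.975) and Cldn3 (0.949).

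By genotype at E16.5, none of the 8 tested members differed in hepatocyte-like cells between the 2 Jag1Ndr/Ndr libraries and the 3 others. The edgeR quasi-likelihood test called 0% of 10909 genes (225 had an unadjusted p below 0.05), and DESeq2 called 2, neither of them a member. Cpt1a was at 20, 17.2 and 17.9 CPM in the 3 other libraries and 21.3 and 13.2 CPM in the homozygous ones, a log2 difference of Jag1Ndr/Ndr over the others of -0.06 (SE 0.24). Plin2 was at 115.5, 139.4 and 118.9 CPM and at 97.1 and 103.7 CPM. Both homozygous libraries were thus lowest, at a difference of -0.27 (SE 0.18) that was not called. Acadm differed by 0.18 (SE 0.18), Acadl by 0.13 (SE 0.19), Pdk4 by 0.50 (SE 0.36), Angptl4 by -0.11 (SE 0.25), Cpt2 by -0.03 (SE 0.19) and Ppara by -0.02 (SE 0.23). The lowest edgeR adjusted p among them was 0.9999.

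Of the list genes and members together, 130 were tested in these cells and 5 had an unadjusted p below 0.05. In the 8 other classes 0.0012% of tests were called, and none was a member: of 56 pairs of member and class tested, hepatocyte-like cells included, 0 had an unadjusted p below 0.05. Such p-values were few among all genes too, from 118 of 11656 in B-like to 158 of 4974 in mesenchymal-like cells. The 0 is therefore no result particular to the members. With 2 against 3 libraries a modest difference could have been missed, and the shared library carries a wild-type and a heterozygous label alike.

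At P3 only library C (homozygous label) and library D (heterozygous label) had an unshared label, so values are given with 95% exact Poisson intervals that cover counting error only. Acadl was at 394.9 CPM (336.8 to 460.2) in C and 626.5 CPM (564.5 to 693.4) in D. Acadm was at 211.9 CPM (169.9 to 261) in C and 310.7 CPM (267.6 to 358.9) in D. For both genes C lay below A, B and D, and the intervals of C and D did not meet. The intervals of A and B, both labelled Jag1+/+, did not meet for either gene, at 477.8 to 542.2 CPM and 608.7 to 721.8 CPM for Acadl and at 303.1 to 354.9 CPM and 412.2 to 506.3 CPM for Acadm.

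For Cpt1a C was at 276.9 CPM (228.6 to 332.4) and D at 330.9 CPM (286.3 to 380.5), and for Plin2 353.9 CPM (299 to 416) and 369.5 CPM (322.3 to 421.7), so that the intervals overlapped. They overlapped as well for Cpt2, Ppara, Pdk4, Angptl4 and Fgf21. Library C held 50 hepatocyte-like cells with a median of 8588 UMIs and D 92 with a median of 5144.5 UMIs, and 1 library per label allows no test of genotype.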

How the data were processed

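Single-cell UMI counts per gene and barcode were used as deposited. The authors' count matrices were made with Cell Ranger 2.1.1 on mm10, with R 4.1.2 and Seurat also named, per the submitters' processing notes, while the matrix headers name software version 3.1.0 at E16.5 and 3.0.2 at P3. Strand and multimapping settings are not given in the sources used here.

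Barcodes were kept from 1000 UMIs upward and up to a mitochondrial share of 15%. Doublets called from simulated doublets in scanpy 1.11.5 (Python 3.11.15) were removed, 9.85% to 13.46% of barcodes per library among the embryos and 4.11% to 9.50% among the pups. Cells were clustered per stage with the Leiden method at resolution 1 on 2000 variable genes, without the members, the pathway lists, mitochondrial genes and sex-linked genes. Class names were rebuilt from marker lists, and the rule that scored them, like the mixed class, was set with values seen. Counts were summed per class and library (at least 20 cells) over the 22519 genes listed at both stages. They were tested with edgeR 4.0.16 (R 4.3.3; quasi-likelihood, TMM, filterByExpr), with Benjamini-Hochberg adjustment over all classes and genes of a comparison. DESeq2 1.42.0, no filter on low counts, the label's replicate number as a covariate and each library left out were alternatives in all classes. Other cell filters, scalings and cell sets were run only in hepatocyte-like cells. Shares of cells were compared by exact permutation (scipy 1.17.1). The edgeR test was also run on simulated counts with the same dispersion for every gene and as many genes raised as lowered. That setting is simpler than these data, and no result here rests on it.

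The members and gene lists were chosen with earlier results of these data known. Named list genes are up to 3 higher and 3 lower per list with the largest change among those called; some of these are not reported here. Likeness is Pearson's r of log2(mean CPM + 1). Poisson intervals (95%) and limits from a count of 0 (3 UMIs) cover counting error only.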

Additional observations from a re-analysis of the deposited data

Results flagged for a closer look

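Of 17 groups of 4 or 5 libraries examined for a value far from the rest, 3 held one. The rule's nominal rate is about 1 in 20 for normally distributed values. Its share over all genes was not measured, so no excess is read from the 3. In hepatocyte-like cells Cpt2 stood at 52.97 CPM and Angptl4 at 36.96 CPM in the shared E16.5 library, each above the 4 others. Angptl4 stood at 83.98 CPM in P3 Jag1Ndr/+ replicate 1, above the 3 other P3 libraries. Without that library its log2 stage difference was 0.97 in place of 1.22.

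The stage change differed between classes in 9 of 16 tests of the difference itself (edgeR, library as a block), where 13% of all genes tested changed more and 7.99% less in hepatocyte-like than in macrophage-like cells, and 7.84% and 6.79% against endothelial-like cells. Against macrophage-like cells, the log2 change in hepatocyte-like cells was larger by 2.16 for Cpt1a, 1.55 for Acadl, 1.07 for Cpt2 and 0.64 for Acadm, and differed by -0.98 for Angptl4. Acadm was called lower in macrophage-like cells and was not called in hepatocyte-like cells. Against endothelial-like cells it was larger by 2.50 for Cpt1a, 1.28 for Cpt2, 0.94 for Plin2 and 0.93 for Acadl.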

How the results depend on the processing

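In hepatocyte-like cells each of the 8 tested members stayed on its side of the threshold in 174 of 174 results under the alternatives, Acadm and Pdk4 being uncalled throughout. The count was 7 without the filter on low counts, which let Fgf21 in, and 5 after thinning, where Angptl4 was not tested. Thinning cells to 2000 UMIs left 2589 genes tested and 646 higher and 614 lower. In other classes 527 of 550 results held, 18 lost and 5 gained a call. There only DESeq2, no filter on low counts, a replicate covariate and each library left out were run, and no other scaling or cell filter. In the genotype comparison no member was called in 88 of 88 results, while genes called numbered 2 with DESeq2, 7 without the filter and 0 to 2 when 1 library was left out; the cause was not tested. With the replicate block (the label's number as a covariate) 6 members, 2074 higher and 2031 lower genes, 30 member calls in other classes and 0 by genotype were called. The numbers were not taken to pair the E16.5 libraries: same-numbered pairs correlated at 0.166, 0.0953 and -0.0543, and with 2 homozygous libraries those mirror the other pairs by construction. Members whose share of cells passed (adjusted over the list alone, as no independent evidence) numbered 6, or 7 with mixed clusters included. They were Cpt1a, Cpt2, Acadl and Plin2, 4 in all and higher at P3, when thinned to 1000 UMIs, and Cpt2, Acadm, Pdk4 and Angptl4, 4 in all and lower at P3, when not thinned. With 1 library left out they numbered 0 to 6, where the smallest unadjusted p is 0.0286 or 0.0357, so this says nothing of stability. Unthinned, the differences of P3 over E16.5 were -20.2 (Cpt2), -20.6 (Acadm), -3.89 (Acadl), -18.5 (Ppara), -17.7 (Pdk4), -19.5 (Angptl4) and -8.27 (Plin2) percentage points, at lower P3 depth. Thinned to 1000 UMIs, Angptl4 was at -0.0708. With mixed clusters included, which added far more cells at E16.5 than at P3, Acadm was called, at 14.8 in place of -3.73. The cause was not tested. Leaving out hepatocyte-like clusters with fewer than 3 leading hepatocyte markers removed no cell in the main clustering, and was not run at resolution 2, where a P3 cluster of 160 cells had 2. At P3 library C had 50 hepatocyte-like cells, and over all P3 libraries Pdk4 and Fgf21 rest on 27 and 18 UMIs.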
